A study of Homo sapiens with 4 samples.

Results

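The clustered protocadherins are the 54 genes of the alpha, beta and gamma clusters on human chromosome 5, chosen by gene symbol alone: PCDHA with a number, PCDHAC1 and PCDHAC2, PCDHB with a number, PCDHGA and PCDHGB with a number, and PCDHGC3 to PCDHGC5. The count files held 54 such genes of 60623 in all, of which 16 were alpha, 16 beta and 22 gamma genes. RNA-seq had been performed in the BICR10 line, human cells from a cancer of the head and neck, after lentiviral expression of a control hairpin (shControl) or a hairpin against YEATS2 (shYEATS2), a reader of histone acylation, and puromycin selection of both. Each condition had 2 libraries, named here shControl 1 and 2 and shYEATS2 1 and 2. The study lists a pair of YEATS2 hairpins, and the labels do not say which of them was used. The study speaks of biological replicates for its experiments in general, and neither it nor the labels say how the 2 RNA-seq libraries of a condition were obtained, so the p-values measure the spread between these libraries, which may be partly technical.

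Clustered protocadherins are single-pass adhesion proteins whose extracellular part is a row of cadherin repeats. In neurons each cell expresses its own combination of them, and matching combinations on facing membranes let a cell recognise its own branches. Each alpha and gamma transcript starts at the promoter of its own variable exon, which codes for the whole extracellular part, and is spliced to a set of constant exons that all members of that cluster share. Each beta gene is a single coding exon with no constant part. Promoter choice is known to depend on CTCF, cohesin, DNA methylation and distant enhancers, and several of these genes are silenced by methylation in carcinomas.

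Counts on genes summed to 47297970 and 39824898 in shControl and 24072396 and 11334133 in shYEATS2, so that both shYEATS2 libraries were shallower and depth cannot be told apart from the condition. YEATS2 itself stood at 66.1 and 66.7 CPM (counts scaled to a common library size, with TMM factors) in shControl and at 29.2 and 29.1 CPM in shYEATS2, a fall to 43.95% of the control level. The labelled cell type was checked with 5 marker lists. Of 8 squamous markers 4 reached a mean of 1 CPM, and TP63, a defining squamous factor, was at or near 0. The 8 summed to 204 to 206 CPM in shControl and 132 to 142 CPM in shYEATS2, most of it SFN. SFN stood at 130 and 130 CPM in shControl and 136 and 126 CPM in shYEATS2. KRT6A went from 54.9 and 58.1 to 1.38 and 2.20 CPM and KRT5 from 16.4 and 14.9 to 1.03 and 1.36 CPM. CDH1 was higher, from 0.352 and 0.317 to 2.84 and 2.12 CPM. All 6 fibroblast markers reached 1 CPM, and their sum, far above that of the squamous markers, went from 7189–7279 to 2210–2346 CPM. Of 9 neuronal markers only MAP2 and SYP did, with SNAP25 and ELAVL4 at 0. The sum of the 9, nearly all of it MAP2, was 73.4–75.7 and then 126–131 CPM. The 4 endothelial markers, KDR foremost, summed to 35.5–36.4 and 18.6–19.6 CPM with CDH5 at or near 0, and the 4 leukocyte markers to at most 0.170 CPM with CD3E and CD68 at 0. The part of these shifts in the results below was not tested. In a culture measured in bulk, fewer cells with a transcript and less of it per cell cannot be told apart.

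All 54 genes lie on the plus strand within 726.8 kb, at chr5:140786136-141512977 of GRCh38, by GENCODE release 44. The alpha cluster comes first (226.2 kb, from 140786136), then the beta cluster (198.0 kb, from 141051374) and the gamma cluster (182.5 kb, from 141330514). Of the 16 alpha genes 15 are protein coding, and PCDHA14 is a transcribed pseudogene that lies wholly in exons of PCDHA10.

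The gamma genes overlap in their exons. All 22 share 2177 exonic bases in 3 blocks of 59, 89 and 2029 bases, at chr5:141494807-141494865, chr5:141505393-141505481 and chr5:141510947-141512975. The largest block ends in the 3' UTR common to the cluster. Each gamma gene therefore shares bases with 21 others, and the part that belongs to 1 gene alone runs from 2459 bases in PCDHGB4, or 35.63% of its exons, to 5752 bases in PCDHGA6. PCDHGB4 also shares exonic bases with its neighbour PCDHGA8, outside the constant exons. The 15 coding alpha genes share 2869 bases in 3 blocks of 59, 89 and 2721 bases. No beta gene shares a base with another member, and 90.46% to 100% of each beta gene's exons belonged to it alone. In PCDHB8, PCDHB9, PCDHB14, PCDHB15 and PCDHB16 the rest lies in exons of a non-member on the same strand.

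This layout decides what the counts hold. The counting program was HTSeq, whose usual rule gives a read pair that touches exons of more than 1 gene to none of them, although the mode and strand setting are not given in the sources used here. Under that rule a pair in or reaching into the constant exons would count for no alpha or gamma gene, so their values rest on the gene's own bases, chiefly the variable exon. The share of pairs set aside as ambiguous over the whole genome was 4.31% to 4.61% in the 4 libraries. PCDHGC3 has 404 own bases outside its first exon, beside 2849 in it, and pairs there could come from unspliced RNA of an upstream gamma gene. Beta genes resemble each other closely, and pairs that map to several of them would have been left out. Antisense genes that overlap members had at most 12 counts in a library.

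**Figure D1:**
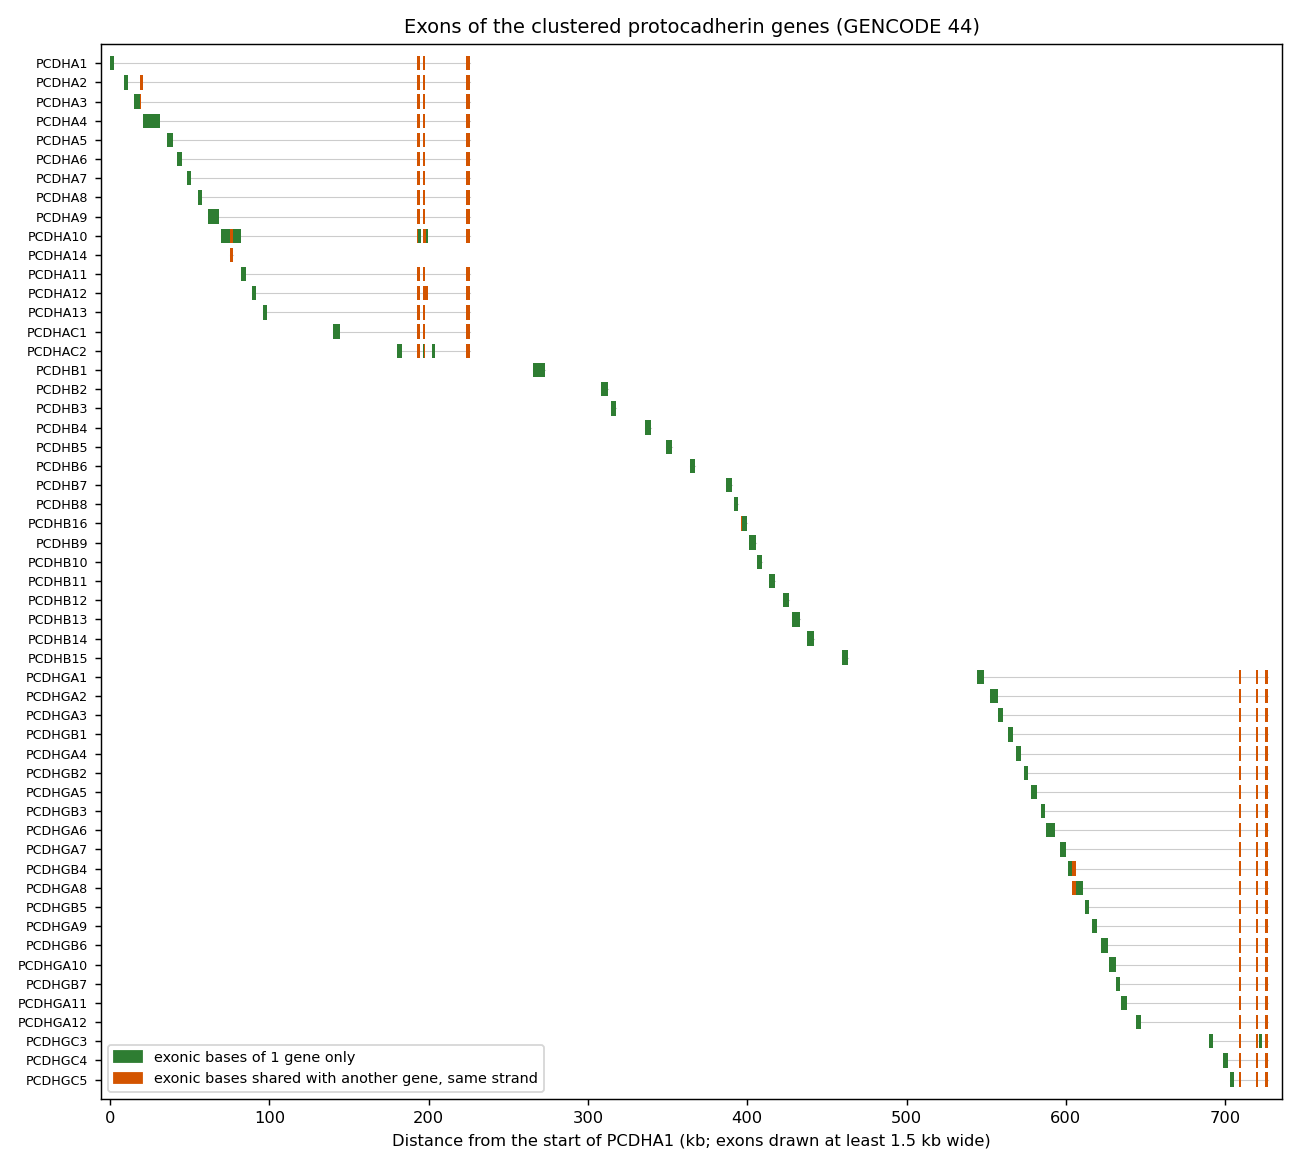
Exons of the 54 genes, 1 gene per row in chromosome order, by distance from the start of PCDHA1 in kb; green marks bases of 1 gene only, orange bases shared with another gene on the same strand, and exons are drawn at least 1.5 kb wide. The 3 orange columns at the right end of the gamma cluster are the 2177 bases that all 22 gamma genes share; the beta genes have no such column.

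Promoters of the clusters carry a conserved element with a CGCT box. RefSeq windows (GRCh38.p14, from 250 bases before the start to 50 after it) were found for 47 of the 54 members, and not for PCDHA3, PCDHA13, PCDHA14, PCDHB6, PCDHB11, PCDHGA12 and PCDHGC5. The 30 bases around the box are shown for PCDHA1, the alpha gene with the most counts, and for the called genes with a window. All read on the plus strand, and the capitals mark ATGTCGCT in alpha, GTGGCGCT in beta and GNCGCT in gamma. The last is not particular to gamma, since the marked alpha and beta letters contain it.
PCDHA1 (chr5:140786087-140786116): ttggccacatgATGTCGCTgtacaccacaa
PCDHB2 (chr5:141094545-141094574): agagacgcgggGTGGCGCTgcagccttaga
PCDHB16 (chr5:141182311-141182340): gagaacgcgtgGTGGCGCTgcaggttaaga
PCDHB14 (chr5:141223264-141223293): ggagacacatgGTGGCGCTacaggataaga
PCDHGA3 (chr5:141343768-141343797): taggcctcttagtGTCGCTgttgaccactc
PCDHGB1 (chr5:141350026-141350055): acaacctctgggcGCCGCTgtcgaccaaaa
PCDHGB2 (chr5:141359922-141359951): aaaacctctgagcGTCGCTgttggtcaaaa
PCDHGB6 (chr5:141407925-141407954): ggagcctctgggcGCCGCTgtcggccagtg
PCDHGA10 (chr5:141412932-141412961): taggactctgagcGCCGCTgttcacctact
PCDHGC3 (chr5:141475881-141475910): tgggactctgtgtGCCGCTgtcggccaatg

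The letters before CGCT differed between the alpha and beta boxes. A symbol counted once, if any of its windows held a motif on either strand. CGCT stood in 46 of the 47 members with a window, but also in 71.9% of all 27305 symbols. GNCGCT, the letters marked in gamma, stood in 12 of 13 alpha, 14 of 14 beta and 19 of 20 gamma members. It also stood in 47.99% of all symbols. ATGTCGCT was found in 9 of 13 alpha members, in 0 beta and 0 gamma members, and in 0.282% of all symbols. GTGGCGCT was found in 13 of 14 beta members (all but PCDHB1) and 1.38% of all symbols. GNCGCTGT was found in 17 of 20 gamma, 5 of 13 alpha and 1 of 14 beta members, and in 5.28% of all symbols. Each longer motif contains the shortest one, ATGTCGCT can overlap GNCGCTGT, and the motifs were written after the sequences had been read. Median distances from box to annotated start were −48, −61 and −62 bases in the alpha, beta and gamma windows. PCDHB16, which rose, and PCDHB14, which fell, both held GTGGCGCT, and PCDHGB1 and PCDHGB6, which moved in opposite directions, had the same 6 letters in capitals above. The TATA box letters, TATAAA, were in 6 of the 47 members and in 13.99% of all symbols.

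The 3 clusters differed widely in summed counts in BICR10. The sums carry no length correction, and under the counting rule above pairs in constant exons count for no alpha or gamma gene. Sums and shares of different clusters are therefore not on the same scale. Summed over members, the gamma cluster stood at 108 and 107 CPM in shControl and at 76.7 and 70.7 CPM in shYEATS2. The beta cluster stood at 41.0 and 42.6 CPM in shControl and at 44.9 and 43.3 CPM in shYEATS2. The alpha cluster stood at 0.485 and 0.529 CPM in shControl and at 0.355 and 0.424 CPM in shYEATS2, from 22, 20, 9 and 5 counts. In all 3 clusters the 2 conditions did not overlap, with gamma lower and beta slightly higher in shYEATS2. Alpha was lower too, but on these few counts. The gamma sum went from 107.5 ± 0.656 to 73.7 ± 4.22 CPM (SD, n = 2), a ratio of 0.685. The beta sum went from 41.8 ± 1.10 to 44.1 ± 1.13 CPM (SD, n = 2), a ratio of 1.05, a far smaller difference than that of the gamma sum. With 2 libraries per condition, a two-sided exact permutation test of a single sum cannot go below p = 0.333.

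As shares of all clustered protocadherin counts, gamma made up 72.2% and 71.3% in shControl (95% Wilson intervals 71.2% to 73.3% and 70.1% to 72.5%) and 62.9% and 61.8% in shYEATS2 (61.2% to 64.6% and 59.2% to 64.3%). Beta made up 27.4% and 28.4% and then 36.8% and 37.9%, and alpha 0.291% to 0.370% in every library. These intervals cover counting error only. The gamma share was thus lower and the beta share higher in both shYEATS2 libraries, by more than the libraries of a condition differed.

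Of the 54 members, 46 had at least 1 count and 30 passed the filter on low counts (at least about 0.313 CPM in 2 libraries), 0 in the alpha cluster, 14 in the beta and 16 in the gamma cluster. A member could pass through the condition where it is high alone, so that the counts below describe those 30 and not the family. At an adjusted p under 0.05 (edgeR's quasi-likelihood test, Benjamini-Hochberg over 17058 genes), 7 of the 30 were lower in shYEATS2 and 4 higher, while 23.6% of all tested genes were called lower and 22.6% higher. The shares among the 30 were 23.3% and 13.3%, from counts too small to set them apart from the background. With library totals in place of TMM, which moved the median of all genes from −0.01 to 0.13, 5 were lower and 7 higher, and all genes split into 2567 lower and 5441 higher instead of 4019 and 3857.

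In the gamma cluster 5 of 16 tested genes were lower and 2 higher, with a median log2 fold change of −0.60 and a range of −3.85 to 1.87, and in the beta cluster 2 of 14 were lower and 2 higher, with a median of −0.16 and a range of −2.09 to 0.81. The median over all tested genes was −0.01. All 16 tested gamma genes had non-overlapping conditions, 12 with both shYEATS2 libraries lower and 4 higher, where 36.3% and 35.2% of all tested genes were so. Of the 14 beta genes 3 were lower, 3 higher and 8 overlapped. The beta median was positive, at 0.17, when all libraries were thinned to the smallest total, so no direction is given for it. Taking PCDHGC3 away left the gamma median at −0.59 over 15 genes.

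**Figure D2:**
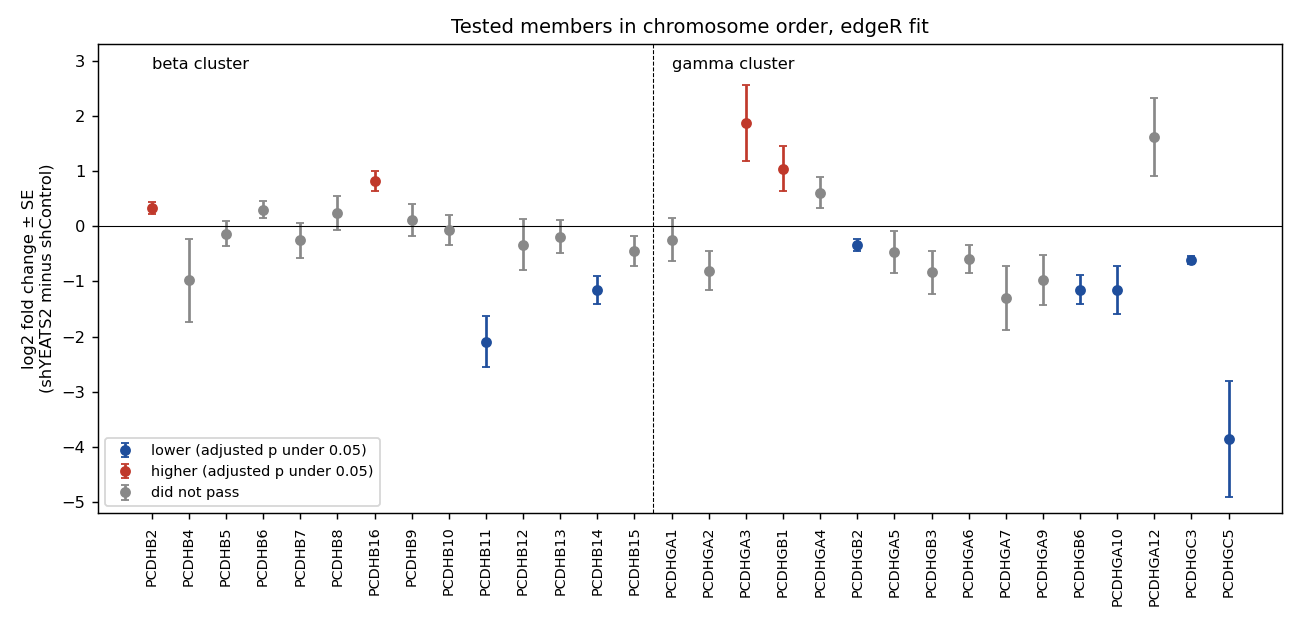
Log2 fold change (shYEATS2 minus shControl) of the 30 tested members in chromosome order, with bars of 1 SE from the edgeR fit; blue was called lower, red higher, grey neither. Beta genes scatter around 0 between −2.09 and 0.81, and 12 of 16 gamma genes lie below 0.

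**Figure D3:**
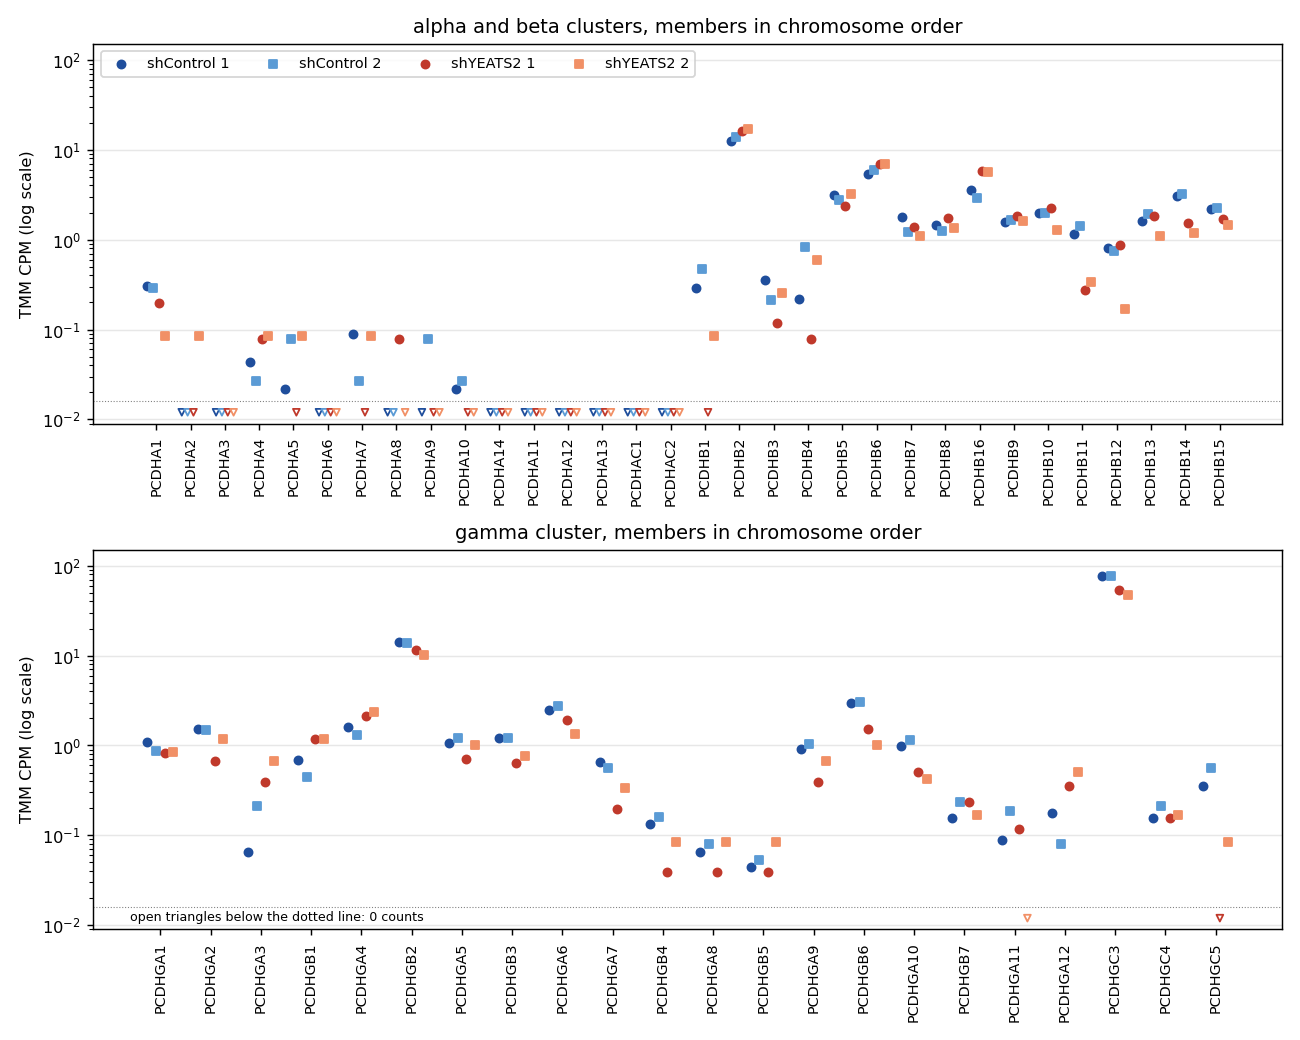
Level of each member in TMM CPM (log scale), 1 point per library, blue for shControl and red or orange for shYEATS2, with open triangles for 0 counts. PCDHGC3 stands above all other members in all 4 libraries, and every alpha gene lies below 0.4 CPM.

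PCDHGC3 (ENSG00000240184, chr5:141475947-141512977), the C-type gamma gene widely expressed outside neurons, was the member with the highest level. It had 3522 and 2892 counts in shControl and 1344 and 561 in shYEATS2, or 77.6, 76.5, 53.0 and 47.5 CPM. Both shYEATS2 libraries were clearly below both shControl libraries. Its log2 fold change was −0.60 (SE 0.07, adjusted p = 8.41e-11), a fall to 65.8% of the control level. The gene accounted for 51.9% and 50.9% of all clustered protocadherin counts in shControl and for 43.5% and 41.6% in shYEATS2. Without it the gamma sum was 30.4 and 30.6 CPM in shControl and 23.7 and 23.1 CPM in shYEATS2, a ratio of 0.766, so the lower gamma sum did not rest on PCDHGC3 alone.

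PCDHGC5 (ENSG00000240764), the last variable exon of the cluster and also a C-type gene, had 16 and 21 counts in shControl and 0 and 1 in shYEATS2. It was at or near 0 in both shYEATS2 libraries and passed the filter through shControl alone. The fitted log2 fold change of −3.85 (SE 1.05, adjusted p = 0.00169) depends on the fit at such counts, and 37 counts against 1 give a ratio of 0.0605 with an exact counting interval of 0.00149 to 0.359. Without shYEATS2 1 the call was lost (adjusted p = 0.153), and in the other alternatives that left no library out and tested it the adjusted p lay between 0.000179 and 0.0467. The third C-type gamma gene, PCDHGC4, had 2 to 8 counts in a library and was not tested.

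Among the gamma B genes, PCDHGB2 and PCDHGB6 fell and PCDHGB1 rose. PCDHGB2 (ENSG00000253910), the second gamma gene by level, stood at 14.01 and 13.8 CPM in shControl and 11.6 and 10.1 CPM in shYEATS2. The conditions did not overlap, and the difference was small, with a log2 fold change of −0.34 (SE 0.12, adjusted p = 0.0125). PCDHGB6 (ENSG00000253305) stood at 2.95 and 3.07 CPM in shControl and 1.54 and 1.02 CPM in shYEATS2, so both shYEATS2 libraries were far below both shControl libraries. Its log2 fold change was −1.15 (SE 0.26, adjusted p = 0.000202). PCDHGB1 (ENSG00000254221) stood at 0.683 and 0.449 CPM in shControl, from 31 and 17 counts, and at 1.18 and 1.19 CPM in shYEATS2, from 30 and 14 counts. The shYEATS2 libraries were nearly equal and above both shControl libraries, with a log2 fold change of 1.04 (SE 0.41, adjusted p = 0.0311).

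Of the 4 tested gamma B genes, PCDHGB3 remained, at a log2 fold change of −0.84 (adjusted p = 0.0698). PCDHGB4, PCDHGB5 and PCDHGB7 had at most 9 counts in a library.

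In the gamma A group 10 of 12 genes were tested, with 1 lower and 1 higher and a median log2 fold change of −0.53. PCDHGA10 (ENSG00000253846) stood at 0.991 and 1.16 CPM in shControl and 0.513 and 0.424 CPM in shYEATS2, the latter from 13 and 5 counts. The conditions lay well apart, with a log2 fold change of −1.15 (SE 0.44, adjusted p = 0.0252). PCDHGA3 (ENSG00000254245) had 3 and 8 counts in shControl and 10 and 8 in shYEATS2, or 0.0661, 0.212, 0.394 and 0.678 CPM. Its rise of 1.87 on the log2 scale (SE 0.69, adjusted p = 0.0211) thus rests on a few reads, and it passed the filter through shYEATS2 alone.

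The other 8 tested gamma A genes and PCDHGB3 did not pass the test. Of these 9 genes 7 had a negative log2 fold change, between −1.30 (PCDHGA7) and −0.25 (PCDHGA1), with adjusted p from 0.0523 (PCDHGA6) to 0.636. PCDHGA7 passed the filter through shControl alone. The 2 positive ones were PCDHGA4 (1.61 and 1.30 CPM, then 2.13 and 2.37 CPM, log2 fold change 0.61, adjusted p = 0.0718) and PCDHGA12, which had 8 and 3 counts in shControl and 9 and 6 in shYEATS2 and passed the filter through shYEATS2 alone (log2 fold change 1.61, adjusted p = 0.0566). PCDHGA8 and PCDHGA11 were not tested.

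Along the chromosome, the 4 gamma genes with positive fold changes were PCDHGA3, PCDHGB1 and PCDHGA4, which are neighbours near the start of the cluster, and PCDHGA12, which lies farther on. PCDHGB2, the next gene after PCDHGA4, was lower. No test of this order was made.

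In the beta cluster, PCDHB2 (ENSG00000112852) was the most highly expressed gene, at 12.6 and 13.8 CPM in shControl and 16.3 and 17.04 CPM in shYEATS2. Both shYEATS2 libraries were above both shControl libraries by a small margin, with a log2 fold change of 0.33 (SE 0.11, adjusted p = 0.00815). PCDHB6 (ENSG00000113211), the second by level, showed 5.31 and 5.95 CPM in shControl and 6.94 and 6.86 CPM in shYEATS2. Its log2 fold change of 0.30 (SE 0.15) did not pass (adjusted p = 0.104), although the conditions did not overlap. PCDHB16 (ENSG00000272674) rose from 3.55 and 2.93 CPM to 5.76 and 5.68 CPM, well beyond the spread within a condition. Its log2 fold change was 0.81 (SE 0.18, adjusted p = 0.000164), the highest of the tested beta genes.

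PCDHB14 and PCDHB11 fell. PCDHB14 (ENSG00000120327) stood at 3.08 and 3.25 CPM in shControl and 1.54 and 1.19 CPM in shYEATS2, with a log2 fold change of −1.16 (SE 0.26, adjusted p = 0.000119). PCDHB11 (ENSG00000197479) stood at 1.17 and 1.40 CPM in shControl and 0.276 and 0.339 CPM in shYEATS2, with 53 counts in each shControl library and 7 and 4 in shYEATS2. Its log2 fold change was −2.09 (SE 0.47, adjusted p = 0.000141). PCDHB11 passed the filter through shControl alone. For both genes the shYEATS2 libraries were close to each other and far below shControl. PCDHB11 lies downstream of PCDHB16 and PCDHB14 farther on, so genes called in opposite directions stood a few genes apart.

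The 10 uncalled beta genes had log2 fold changes from −0.98 (PCDHB4) to 0.30 (PCDHB6), and in 8 of them the conditions overlapped. PCDHB4 varied several-fold within each condition, with 0.220 and 0.820 CPM in shControl and 0.0789 and 0.593 CPM in shYEATS2. PCDHB1, which lies apart from the other beta genes and whose window lacked GTGGCGCT, had 13 and 18 counts in shControl and 0 and 1 in shYEATS2. It did not pass the filter, and 31 counts against 1 give a ratio of 0.0723 with an exact counting interval of 0.00177 to 0.434. Tested without a filter, it was lower (adjusted p = 0.00960, edgeR). PCDHB3 had 3 to 16 counts in a library.

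No alpha gene could be tested. PCDHA1 (ENSG00000204970) had the most counts, 14 and 11 in shControl and 5 and 1 in shYEATS2, or 0.308, 0.291, 0.197 and 0.0848 CPM. Its ratio of 0.538 had an exact counting interval of 0.180 to 1.34, so no difference was detectable at this depth. PCDHA4 had 2, 1, 2 and 1 counts and PCDHA7 had 4, 1, 0 and 1, shControl libraries first. PCDHA2, PCDHA5, PCDHA8, PCDHA9 and PCDHA10 had 3 counts or fewer in every library. PCDHA3, PCDHA6, PCDHA11, PCDHA12, PCDHA13, PCDHAC1 and PCDHAC2 had none, which allows levels of up to 0.0661, 0.0793, 0.118 and 0.254 CPM in the 4 libraries at 3 counts each, for counting error only. PCDHA14 had none either, but with 0 own bases it could receive no count under the rule above, so its 0 sets no limit.

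Genes can be compared with each other only per length, here CPM per kb of the gene's own exonic bases. In shControl the order was PCDHGC3 at 23.7 ± 0.241, PCDHGB2 at 5.27 ± 0.0624, PCDHB2 at 3.22 ± 0.207, PCDHB6 at 1.74 ± 0.140 and PCDHB16 at 0.887 ± 0.118 CPM per kb (SD, n = 2). PCDHB16 and the next gene, PCDHB5 at 0.862 ± 0.0683, did not differ beyond their spread. The first 5 kept their order in shYEATS2, at 15.5 ± 1.18, 4.10 ± 0.394, 4.07 ± 0.129, 2.14 ± 0.0164 and 1.56 ± 0.0152 CPM per kb. PCDHGB2 and PCDHB2 were level there within their spread, although they lay apart in shControl. PCDHB14 moved from rank 7 to 14 and PCDHGB6 from rank 8 to 17, while PCDHGA4 moved from rank 11 to 6. The number of members with a mean of at least 1 CPM was 21 in shControl and 17 in shYEATS2.

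Within the clusters the leading genes stayed the same. PCDHGC3 made up 71.8% and 71.4% of gamma counts in shControl and 69.1% and 67.3% in shYEATS2. PCDHGB2 followed with 12.97%, 12.9%, 15.1% and 14.3%. In the beta cluster PCDHB2 made up 30.6% and 32.3% in shControl and 36.3% and 39.3% in shYEATS2. PCDHB16 held 8.64% and 6.89% and then 12.8% and 13.1%, whereas PCDHB14 held 7.51% and 7.64% and then 3.42% and 2.74%. PCDHB2 and PCDHB16 thus held a larger share of the beta counts in both shYEATS2 libraries and PCDHB14 a smaller one.

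**Figure D4:**
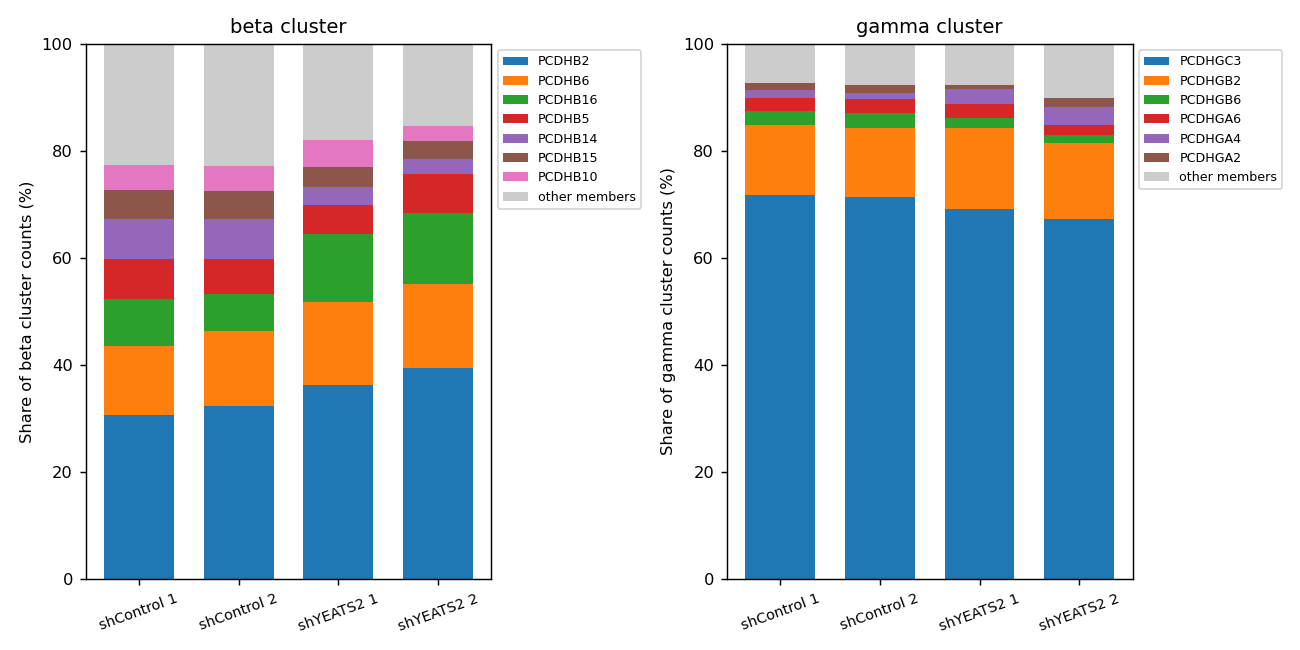
Share of each cluster's counts (percent of the cluster's counts in that library) held by its leading genes, 1 bar per library, left beta and right gamma. PCDHB2 and PCDHB16 take a larger part of the beta bars in shYEATS2 and PCDHB14 a smaller one; PCDHGC3 holds 67.3% to 71.8% of every gamma bar.

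The calls differed in how firmly they held. PCDHB11, PCDHB14, PCDHB16, PCDHGB6 and PCDHGC3, 5 of the 11 called genes, kept their call in every alternative of 15 in which they were tested. Of these, PCDHB11 had passed the filter through shControl alone. It was not tested where at least 10 counts in every library were required. The other 6 called genes lost their call in at least 1 alternative. Besides PCDHGC5, these were PCDHB2, PCDHGA3, PCDHGA10, PCDHGB1 and PCDHGB2, each of which was lost with DESeq2 (adjusted p = 0.0629, 0.121, 0.160, 0.155 and 0.0997). Over all alternatives that kept the 4 libraries, the adjusted p of these 5 ran from 0.000572 to 0.0884, 0.00617 to 0.121, 0.0161 to 0.160, 0.00697 to 0.155 and 0.00748 to 0.146. Each of the 5 was also lost on leaving out at least 1 library. Precision followed the counts: the 5 members with a mean of at least 100 counts had SEs of 0.07 to 0.18 and 4 of them were called, and the other 25 had SEs of 0.23 to 1.05.

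**Figure D5:**
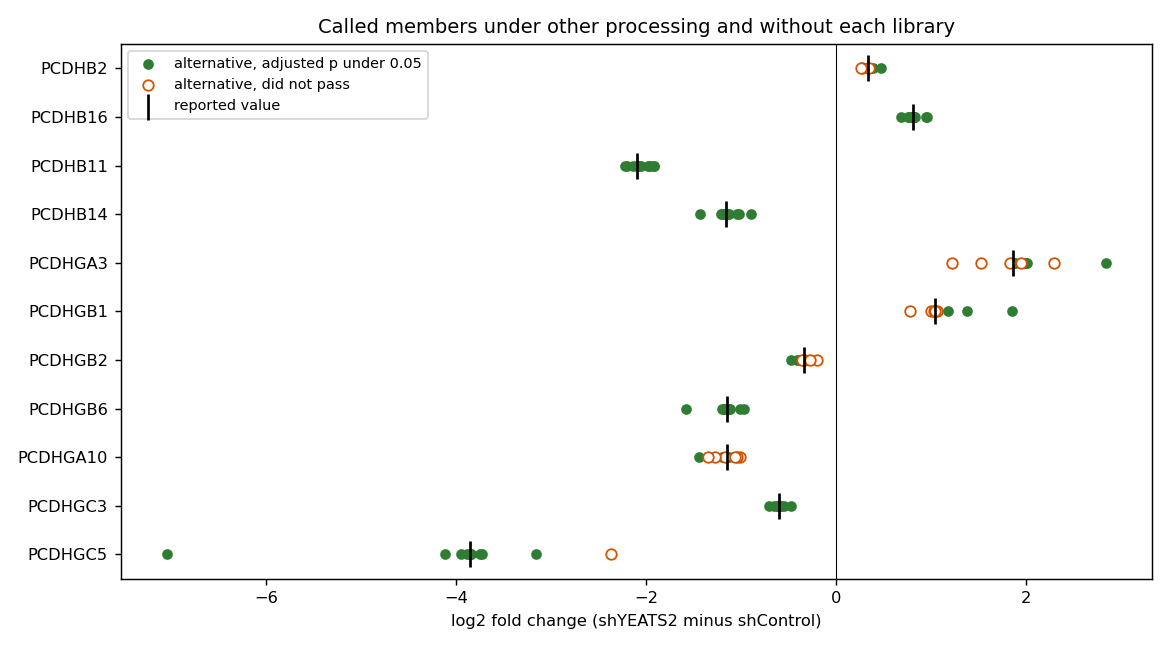
Log2 fold change (shYEATS2 minus shControl) of the 11 called members in 15 alternatives, with a black bar for the reported value, filled points where the adjusted p was under 0.05 and open points where it was not. All points of a gene lie on the same side of 0; PCDHGC5 spreads most, from −7.04 to −2.37.

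Other genes that act on or with clustered protocadherins were given by lists. For the machinery that folds the locus, CTCF, cohesin and their loaders and releasers, 13 genes were tested, with 3 lower, 2 higher and a median log2 fold change of −0.01. CTCF, which binds the box, stood at 67.0 and 67.0 CPM in shControl and 64.4 and 69.2 CPM in shYEATS2 and was not called (log2 fold change −0.01, SE 0.07). Called members of the list were the cohesin subunits RAD21 (0.46) and SMC1A (−0.41), the releasing factor WAPL (0.22), PDS5B (−0.54) and the acetyltransferase ESCO2 (−0.33). The cohesin subunits RAD21 and SMC1A thus moved in opposite directions.

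For silencing and DNA methylation, 16 genes were tested, with 7 lower, 5 higher and a median of −0.18. DNMT3B, a de novo DNA methyltransferase that methylates clustered protocadherin promoters in development, rose from 8.66 and 7.83 CPM to 22.5 and 20.9 CPM (log2 fold change 1.40, SE 0.11, adjusted p = 1.25e-17). The demethylating enzyme TET1 was lower (−0.80) and TET3 higher (0.61). SMCHD1, a repressor that acts on these clusters, was lower (−0.29), as were TRIM28 (−0.40), SETDB1 (−0.28) and the maintenance methyltransferase DNMT1 (−0.27), whereas LRIF1 and ATF7IP were higher (0.63 and 0.44). UHRF1 (−0.19) and TET2 (−0.26) were lower as well.

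Among 14 intracellular partners, which include the kinases and the WAVE complex that bind protocadherin tails, 12 were tested, with 2 lower, 5 higher and a median of −0.06. The kinase FYN (0.65) and the WAVE complex genes ABI1 (0.67), WASF1 (0.55) and WASF2 (0.21) were higher, as was AXIN1 (0.35), and BRK1 (−0.35) and CYFIP1 (−0.18) were lower. Of the 6 genes of the shedding machinery, which cuts gamma protocadherins at the membrane, 4 were lower, with a median of −0.29 over the list. ADAM10, the sheddase, went from 289 and 298 CPM to 216 and 239 CPM (log2 fold change −0.37), and the gamma-secretase subunits NCSTN (−0.54), PSENEN (−0.40) and APH1A (−0.21) were lower.

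Non-clustered protocadherins, encoded by single genes, include some of the protocadherins with the highest CPM in these cells, without correction for length. Of 12, 5 were tested and all 5 were called, 3 lower and 2 higher, with a median of −0.99, where 46.2% of all tested genes were called. PCDH18 went from 53.2 and 56.1 CPM to 14.7 and 13.9 CPM (log2 fold change −1.92), PCDH7 from 87.1 and 93.2 CPM to 36.9 and 36.6 CPM (−1.29) and PCDH9 from 186 and 195 CPM to 90.1 and 103 CPM (−0.99). PCDH15 (1.89) and PCDH1 (1.04) were higher.

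Genes around the clusters were called in both directions, at shares near those of all genes. Of 29 neighbouring genes within 500 kb on either side or between the clusters, 24 were tested, with 6 lower (25.0%, against 23.6% of all tested genes), 7 higher (29.2%, against 22.6%) and a median of −0.03. TAF7, which lies between the beta and gamma clusters, stood at 27.4 and 26.6 CPM in shControl and 31.7 and 30.3 CPM in shYEATS2 (log2 fold change 0.20, adjusted p = 0.0479). HBEGF (1.53), PCDH1 (1.04) and DIAPH1 (0.30) were higher and CD14 (−1.08), HDAC3 (−0.43) and ARAP3 (−0.42) lower. The remaining called neighbours were SLC35A4, HARS and RELL2, lower by the test, and HARS2, ZMAT2 and RNF14, higher by the test.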

How the data were processed

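The authors prepared stranded mRNA libraries, sequenced read pairs and used STAR, with GRCh38, for alignment and HTSeq for counting per gene; the authors deposited raw counts without normalization, 1 file per library, and tested them with DESeq2. The annotation release, strand setting and the version of STAR are not given in the sources used here. Members were matched by symbol and, for exons, by Ensembl identifier to GENCODE release 44 (60295 of 60623 genes matched, and 54 of 54 members). The members and gene lists were chosen with earlier results of these data known. Tallies of pairs given to no gene (15.3% to 16.5%) were left out. Genes were filtered with filterByExpr, given TMM factors and put through the quasi-likelihood test of edgeR 4.0.16 (robust glmQLFit) under R 4.3.3, on all 17058 genes, adjusted by Benjamini-Hochberg, with a threshold of 0.05. The script was tested on simulated data. Replicates differed by more than counting noise (chi-square per degree of freedom 5.95 and 5.39). Values per library were given for called genes, for the 3 highest members of each cluster and for those with the largest and smallest fold change. Alternatives used DESeq2 1.42.0, limma 3.58.1 and other filters, scalings and thresholds. No outlier test is possible with 2 libraries per condition. Values of some genes in the lists are not reported here.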

Additional observations from a re-analysis of the deposited data

How the results depend on the processing

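Of 15 alternatives, the count of members called lower stayed within 1.5 times of 7 in each that kept all 4 libraries, and ran from 4 to 9 on leaving out 1 library (4 without shControl 2). The count called higher, 4, was 7 with library totals alone, 2 without a filter, 1 with DESeq2, 2 after thinning to 11334133 counts, 2 at an adjusted p under 0.01, and 2 to 3 on leaving out 1 library. The gamma median of −0.60 was −0.46 with library totals, −0.47 with at least 10 counts in every library, −0.45 after thinning and −0.63 to −0.51 on leaving out 1 library. The beta median of −0.16 became 0.17 after thinning, where 12 genes were tested instead of 14, and ran from −0.33 to −0.06 on leaving out 1 library. The cause was not tested beyond the fewer genes or libraries these settings hold. Calls over all genes numbered 5666 to 8056 (5769 with DESeq2). The lone library left in a condition is assumed to vary like the other pair.

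Uncalled members that changed sign were PCDHB5 (0.0020) and PCDHB10 (0.068) with library totals and PCDHB5 (0.22), PCDHB13 (0.18) and PCDHGA5 (0.092) after thinning. On leaving out 1 library the ranges crossed 0 for PCDHB4 (−2.63 to 0.24), PCDHB5 (−0.32 to 0.11), PCDHB7 (−0.50 to 0.067), PCDHB8 (−0.011 to 0.35), PCDHB9 (−0.016 to 0.16), PCDHB10 (−0.65 to 0.18), PCDHB12 (−2.19 to 0.15) and PCDHB13 (−0.69 to 0.037). No called member changed sign. Without shControl 1 the calls of PCDHB2, PCDHGA3, PCDHGA10 and PCDHGB2 were lost, without shControl 2 those of PCDHGA10, PCDHGB1 and PCDHGB2, without shYEATS2 1 those of PCDHGA3, PCDHGA10, PCDHGB1 and PCDHGC5, and without shYEATS2 2 those of PCDHGA3, PCDHGA10, PCDHGB1 and PCDHGB2.

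Libraries with the same replicate number showed no shared deviation over all tested genes (correlation −0.018). With 2 libraries per condition this single correlation cannot show whether the libraries were paired. With the replicate number as a block, 7 members were lower and 4 higher, 8012 of all genes were called, and the beta and gamma medians were −0.16 and −0.61. Tested without a filter, 1 member that the filter removes was called, PCDHB1 (lower).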

Other observations

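The clusters also hold unprocessed pseudogenes, which stayed near the limit of counting. PCDHB17P had 1 count in each shControl library and 8 and 1 in shYEATS2, and PCDHB18P had 6 and 6 and then 3 and 0. PCDHB19P, PCDHGB8P and PCDHGB9P had at most 4 counts in a library. AC244517.5, an antisense gene over PCDHB1 and PCDHB2, had 7 and 6 counts in shControl and 12 and 2 in shYEATS2. None of these was tested.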
